A study of Drosophila melanogaster with 4 samples.

Results

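The nuclear genes for subunits of respiratory complexes II to V were followed in a comparison of RNA precipitated with the splicing factor B52 from larvae of Drosophila melanogaster. Members were the probes whose single gene symbol, updated through the gene identifier, began with UQCR, with COX and a digit, or with ATPsyn, or was SdhA, SdhB, SdhC, SdhD, Cyt-c1, RFeSP or ox. The rule found 44 of 15744 probes, for 40 of 12236 named genes. These were 3 genes of complex II, 8 of complex III, 14 of complex IV and 15 of complex V. A value on all 4 arrays was present for 37 of the 40 genes, through 40 probes, and counts and medians below are over these 37 unless stated. The other 3 genes, UQCR-11L, COX6AL and COX6CL, lacked a value on 1 array. Of 50 genes of assembly Release 6 whose symbols meet the rule, 10 had no named probe here and were not analysed, among them SdhA, UQCR-C1, UQCR-C2 and the mitochondrially encoded COX1, COX2 and COX3.

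The extracts came from larvae of the third instar. GMR, a driver active in differentiating cells of the developing eye, was crossed to GFP-B52 and, for the control, to GFP-NLS, a GFP tagged for the nucleus. The anterior parts of 600 larvae were pooled for each extract, so RNA of many tissues other than the eye was present, and both extracts were precipitated with an antibody to GFP. Polyadenylated RNA of the B52 and GFP-NLS precipitates was hybridised together on 2-colour arrays, in 2 replicates with both dye orientations each. Arrays are called Cy5 arrays or Cy3 arrays after the dye on the B52 precipitate, and paired values are in the order of replicates 1 and 2. The labels do not say whether the replicates came from separate larvae, so p-values here cover the spread between 2 replicates that may be technical ones. The deposited values are log ratios, and signal intensities were not analysed here, so neither the tissue makeup of the extracts nor the level of any gene could be checked.

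The respiratory chain lies in the inner mitochondrial membrane. Complex II oxidises succinate and complex III passes electrons from ubiquinol to cytochrome c. Complex IV, cytochrome c oxidase, reduces oxygen, and complex V, the ATP synthase, uses the proton gradient that the chain builds up to make ATP. In Drosophila several of these subunit genes have duplicate copies, named with a final L for "like", and many such copies are expressed mainly in the testis.

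Each array was centred on its median, and the Cy5 arrays had their sign reversed, which suits columns that hold a fixed dye ratio. Over all probes, the arrays of opposite orientation in replicate 1 correlated at 0.603 as deposited and at -0.608 after this reversal. Means of replicate 1 after the reversal thus average arrays that ran against each other. In replicate 2 these correlations were -0.140 and 0.167. The sources used here give neither the log base nor the direction of the deposited ratio. Positive turned values therefore mean only the sign shown by probe 13309 of B52 itself, at 0.451 and 0.510 on the Cy5 arrays and 0.411 and 0.502 on the Cy3 arrays, called the B52-probe side. This sign was chosen from that probe, and the other 4 B52 probes each had both signs among their 4 turned values. Which precipitate was higher on that side is unknown, and the result without turning is given beside each main one. Values are in deposited log units, means are over 2 replicates after the dye orientations were averaged, and errors are SD with n = 2.

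Genes of the complexes lay more often on the B52-probe side than genes at large, a difference for which no test was made. Of the 37 members, 29 had a mean above 0 (78.4%), where 46% of all 11173 genes did, and 8 had a mean below 0, where 54% did, and the member median was 0.058, where that of all genes was -0.007. Their means ran between -0.054 and 0.198. Both replicate means were above 0 for 23 members (62.2%), against 27.9% of all genes. Above 0 on all 4 arrays were 6 members (16.2%), against 5.93% of all genes, and below 0 on all 4 arrays were 0, against 8.37% of all genes. Those 6 were COX7A, COX5A, COX4, COX5B and COX7B of complex IV and UQCR-14 of complex III. By rank, 11 of the 37 (29.7%) were among the top 10% of all genes and 0 among the bottom 10%.

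No single member passed the test. In limma on the replicate means with Benjamini-Hochberg adjustment over all 13963 probes, 0 of 40 member probes were called at an adjusted p under 0.05, as were 0% of all probes on either side, and the smallest adjusted p among them was 0.292, for COX7A. An unadjusted p under 0.05 on the B52-probe side was reached by 5 member probes (12.5%), against 5.22% of all probes. On the opposite side 0 member probes reached it, against 7.73% of all probes. The 5 were the probes of COX7A, RFeSP, COX5A and UQCR-14 and 1 of 2 probes of ATPsyngamma.

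The member values depended on the array and on the turning. The member median was 0.167 on the Cy5 array of replicate 1, where 29 of 37 lay above 0 against 46.8% of all genes. It was -0.003 on the Cy5 array of replicate 2, where 17 did, against 48.4% of all genes. On the Cy3 arrays it was 0.050 in replicate 1, where 22 lay above 0 against 51.5% of all genes, and 0.066 in replicate 2, where 30 did against 48.7%. The median was highest on the Cy5 array of replicate 1, which also had the widest spread over probes (median absolute deviation 0.167, against 0.082, 0.148 and 0.092 on the Cy5 array of replicate 2 and the Cy3 arrays of replicates 1 and 2), while the most members above 0 were on the Cy3 array of replicate 2. Without the Cy5 array of replicate 1 the member median was 0.033, with 29 above 0, and without the Cy3 array of replicate 1 it was 0.105. Without turning, 21 of 37 lay above 0 (56.8%), against 52.5% of all genes, and 16 below, against 47.5%, with a median of 0.009 beside 0.007 for all genes. In that reading 2 members, COX6AL2 and COX7AL, lay above 0 on all 4 arrays (12.3% of all genes) and 1, UQCR-14L, below 0 on all 4 (9.73% of all genes).

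**Figure D1:**
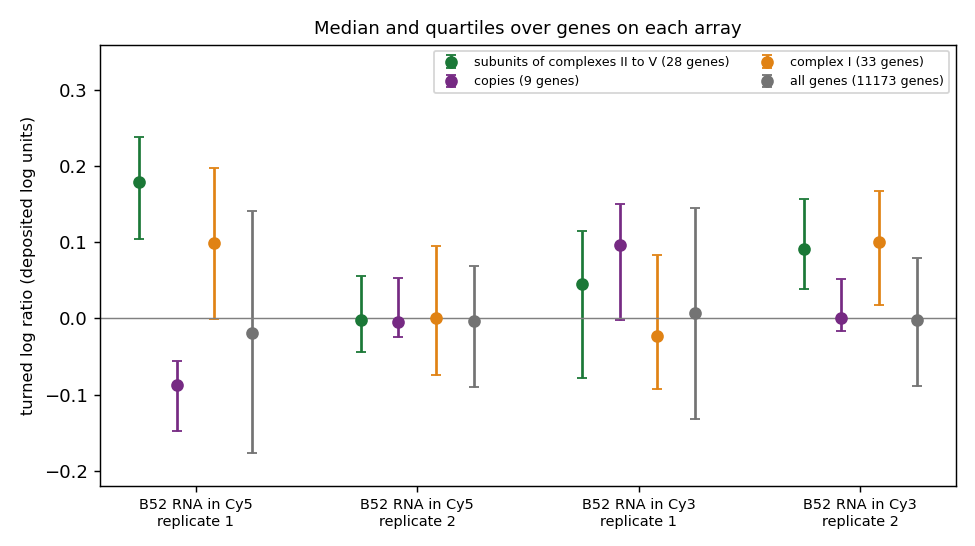
Median (points) and quartiles (bars) of turned log ratios over genes, in deposited log units, on each of the 4 arrays, for the 28 subunit genes of complexes II to V that are no copies, the 9 copies, 33 complex I genes and all 11173 genes. The subunit genes stood at 0.179 on the Cy5 array of replicate 1 and at -0.002 on the Cy5 array of replicate 2.

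Complex II, succinate dehydrogenase, had its 3 measured genes above 0 in the turned mean. SdhB, the iron-sulfur subunit, had turned values of 0.235 and 0.081 on the Cy5 arrays and -0.120 and 0.120 on the Cy3 arrays, with a mean of 0.079 ± 0.030. SdhC, a membrane anchor, had 0.085 and -0.087 on the Cy5 arrays and 0.079 and 0.121 on the Cy3 arrays, with a mean of 0.050 ± 0.046. SdhD, the other membrane anchor, had 0.109 and 0.071 on the Cy5 arrays and -0.161 and 0.019 on the Cy3 arrays, with a mean of 0.0095 ± 0.050. Each of the 3 genes lay above 0 on 3 of 4 arrays, and the array below 0 was the Cy3 array of replicate 1 for SdhB and SdhD and the Cy5 array of replicate 2 for SdhC. Their adjusted p in limma lay between 0.511 and 0.946. Without turning, SdhB and SdhD lay at -0.079 and -0.081 and SdhC at 0.051. The median of the 3 was 0.050 turned, -0.079 without turning and -0.0097 without the Cy5 array of replicate 1.

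Complex III, the cytochrome bc1 complex, was split. Its median over 7 genes was 0.010, with 5 above 0. It was -0.040 without turning and -0.052 without the Cy5 array of replicate 1. RFeSP, the Rieske iron-sulfur protein that takes electrons from ubiquinol, had turned values of 0.436 and 0.248 on the Cy5 arrays and -0.138 and 0.161 on the Cy3 arrays. Its mean was 0.177 ± 0.039 (adjusted p = 0.298 in limma). The spread between its arrays was wide, and the mean was 0.033 without the Cy5 array of replicate 1 and 0.320 without the Cy3 array of replicate 1. Without turning it was -0.165. UQCR-14, a small accessory subunit, was steadier when turned, at 0.172 and 0.017 on the Cy5 arrays and 0.185 and 0.240 on the Cy3 arrays. Its turned mean was 0.154 ± 0.035 (adjusted p = 0.319 in limma). Without turning UQCR-14 had a mean of 0.059, with 2 arrays above 0 and 2 below. Cyt-c1, cytochrome c1, hands electrons to cytochrome c. Turned values of Cyt-c1 were 0.085 and -0.045 on the Cy5 arrays and 0.173 and 0.171 on the Cy3 arrays. The mean of Cyt-c1 was 0.096 ± 0.047, and 0.076 without turning. The small subunits UQCR-6.4, ox and UQCR-Q had means of 0.010 ± 0.058, -0.011 ± 0.035 and -0.033 ± 0.081. For ox the mean hid wide array values, 0.374 and -0.019 on the Cy5 arrays and -0.445 and 0.046 on the Cy3 arrays.

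Complex IV, cytochrome c oxidase, held 5 of the 6 members above 0 on all 4 turned arrays. Its 8 subunit genes that are no copies had a median of 0.110, with 7 above 0. With the 4 copies included, the median over 12 genes was 0.053, with 8 above 0, and 0.049 without turning. COX7A, a small membrane subunit, had turned values of 0.319 and 0.129 on the Cy5 arrays and 0.125 and 0.217 on the Cy3 arrays. Its mean of 0.198 ± 0.035 was the highest turned mean of the members, and is 1.58-fold if the logs are log10 and 1.15-fold if they are log2. Without turning it was -0.027, with 2 arrays above 0 and 2 below, and the highest member was then COX5BL at 0.150. Turned, COX7A lay above 0 on all 4 arrays, and its mean was between 0.149 and 0.246 when 1 array or 1 replicate was left out. When the 4 arrays were fitted with a random block for the replicate, COX7A was the only 1 of 40 member probes called in limma. Its adjusted p was 0.0457 in that fit, against 0.292 in limma on the replicate means. The fitted block correlation was negative, at -0.664, which makes the error of a mean smaller than for independent arrays. The call is therefore not relied on here. With that block 0.845% of all probes were called on the B52-probe side. COX5A, a subunit on the matrix side, had 0.186 and 0.011 on the Cy5 arrays and 0.189 and 0.255 on the Cy3 arrays, with a mean of 0.160 ± 0.039 (adjusted p = 0.314 in limma). COX6B, which faces the intermembrane space, had 0.287 and 0.259 on the Cy5 arrays but -0.094 and 0.016 on the Cy3 arrays, with a mean of 0.117 ± 0.029. COX6B lay at -0.156 without turning. Without the Cy5 array of replicate 1 its mean was 0.022.

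COX4 and COX5B, which contact the catalytic core, and the small membrane subunit COX7B were above 0 on all arrays. COX4 had 0.089 and 0.012 on the Cy5 arrays and 0.050 and 0.295 on the Cy3 arrays, with a mean of 0.112 ± 0.059. COX5B had 0.140 and 0.033 on the Cy5 arrays and 0.112 and 0.149 on the Cy3 arrays, with a mean of 0.109 ± 0.025. COX7B had a mean of 0.097 ± 0.044, with its lowest array at 0.024 and its highest at 0.142. In COX5A, COX4, COX5B and COX7B the lowest array was the same one, the Cy5 array of replicate 2. The small subunits COX8 and COX7C had means of 0.006 ± 0.066 and -0.020 ± 0.012, with both signs among their arrays. Without turning, the 8 subunit genes had a median of 0.018 and 0 of them kept 1 sign on all 4 arrays.

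**Figure D2:**
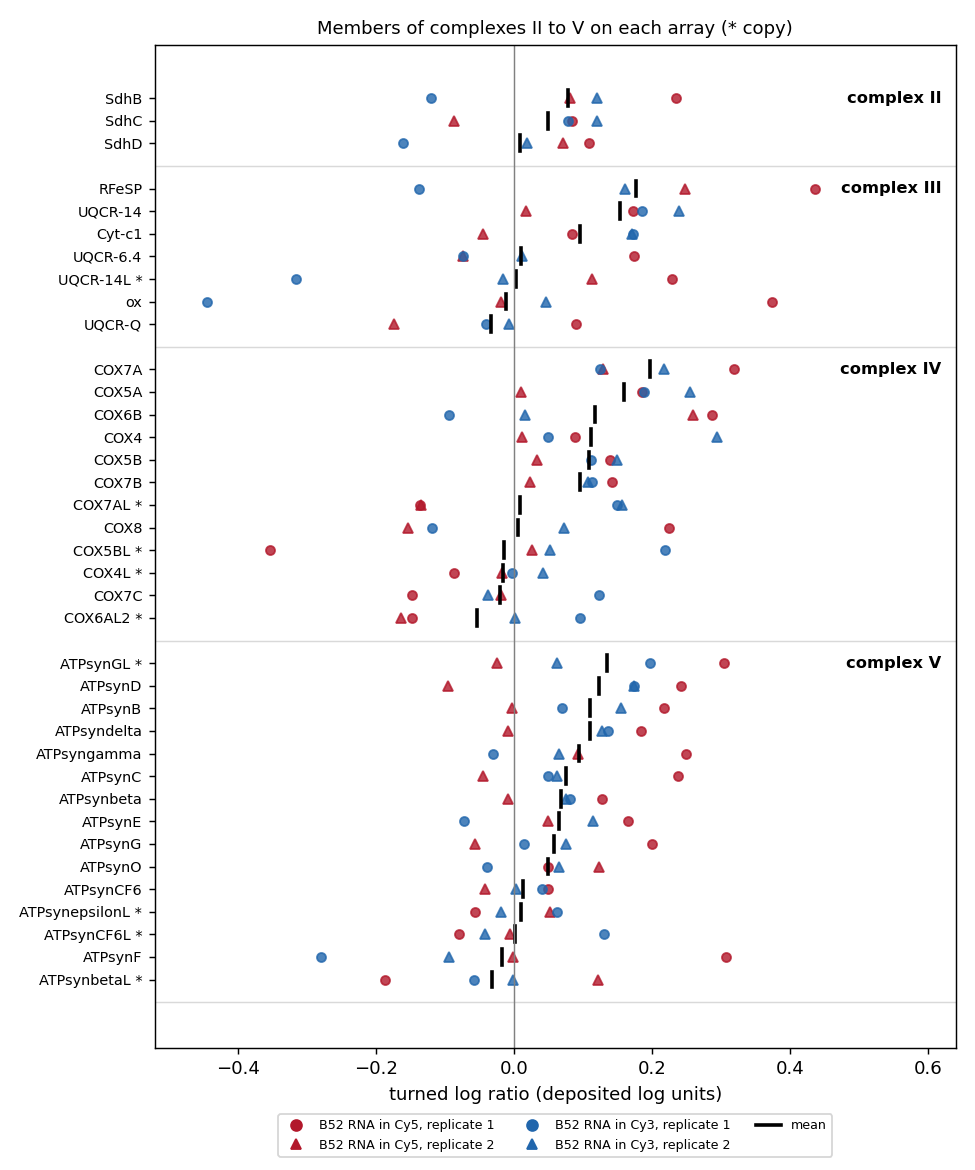
Turned log ratio of each member gene, in deposited log units, on the 4 arrays (colour for the dye of the B52 RNA, shape for the replicate), with the mean as a black bar and copies starred; probes of a gene are averaged. Within complex IV, COX7A, COX5A, COX4, COX5B and COX7B have all 4 points above 0. In complex V 0 of 15 genes do, where 5.93% of all genes do.

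Complex V, the ATP synthase, had means mostly on the B52-probe side. Of its 15 genes 13 had a mean above 0 (86.7%), against 46% of all genes, with a median of 0.065. Above 0 on all 4 arrays were 0 of the 15, where 5.93% of all genes were. With 15 genes this count does not set complex V apart. Without turning the median was 0.0015. The rotor shaft gene ATPsyngamma had a mean of 0.095 ± 0.022, ATPsyndelta of the central stalk 0.110 ± 0.071, the c-ring gene ATPsynC 0.076 ± 0.095 and the catalytic ATPsynbeta 0.069 ± 0.051. The epsilon and alpha subunit genes sun and blw, which the naming rule does not take in, had -0.014 ± 0.088 and 0.015 ± 0.032. Without turning ATPsyngamma had -0.077. Among the members, ATPsyndelta, ATPsynC and ATPsynbeta lay below 0 on the Cy5 array of replicate 2 alone, and ATPsyngamma on the Cy3 array of replicate 1 alone. ATPsynbeta, for example, had 0.128 and -0.009 on the Cy5 arrays and 0.081 and 0.075 on the Cy3 arrays.

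The peripheral stalk, which holds the catalytic head still, had its highest values in ATPsynD and ATPsynB. ATPsynD had 0.242 and -0.096 on the Cy5 arrays and 0.174 and 0.174 on the Cy3 arrays, with a mean of 0.124 ± 0.120. Its replicates differed, at 0.208 in replicate 1 and 0.039 in replicate 2. ATPsynB, over 2 probes, had 0.218 and -0.002 on the Cy5 arrays and 0.070 and 0.156 on the Cy3 arrays, with a mean of 0.110 ± 0.048. ATPsynO and ATPsynCF6, of the same stalk, had means of 0.050 ± 0.063 and 0.013 ± 0.046. Among the membrane subunits, ATPsynE and ATPsynG lay at 0.065 ± 0.025 and 0.058 ± 0.069 and ATPsynF at -0.017 ± 0.043. ATPsynF had 0.307 and -0.001 on the Cy5 arrays and -0.280 and -0.094 on the Cy3 arrays. The probes of complex V had adjusted p values in limma of 0.319 or more.

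Different probes of a gene did not always run together. For ATPsyngamma, probe 10640 lay above 0 on all arrays, with 0.175 and 0.055 on the Cy5 arrays and 0.162 and 0.214 on the Cy3 arrays, and its mean was 0.152 ± 0.024 (adjusted p = 0.319 in limma). Probe 3050 of the same gene had 0.326 and 0.131 on the Cy5 arrays but -0.222 and -0.082 on the Cy3 arrays, so that its sign followed the dye and its mean was 0.038 ± 0.019. As deposited, probe 3050 was below 0 on all 4 arrays. The probes of ATPsynE lay at 0.102 ± 0.031 and 0.028 ± 0.081, and those of ATPsynB at 0.117 ± 0.028 and 0.103 ± 0.068. A further probe of ATPsynO had a value on 1 array only, -0.371, while the other lay at 0.050 on that array. Where the probes lie in the transcripts was not analysed here.

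The 9 copies measured on all arrays centred on 0. Their median was 0.001, with 5 above 0, while the 28 other subunit genes had a median of 0.078, with 24 above 0. This split, by names ending in L or L2, was not planned in the design. The planned one left out names ending in L, which gave a median of 0.076 over 29 genes. Of the 9 pairs of a copy and the gene it is named after, the copy had the lower mean in 6, and in 5 of these 6 in both replicates. The median difference of copy minus namesake was -0.100, with a range between -0.189 and 0.077. This difference was not tested, since no test over genes was made, and without turning the copy was lower in 3 pairs, with a median difference of 0.034. The separation was widest on the Cy5 array of replicate 1, where the copies had a median of -0.087 and the other subunits 0.179. On the Cy3 array of replicate 1 the order was the other way, with 0.096 for the copies and 0.045 for the others. Without the Cy5 array of replicate 1, the copies had a median of 0.040 and the other subunits 0.031.

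COX7AL and COX7A had the widest turned difference of the 9 pairs, and without turning it was 0.171, of the opposite sign, while UQCR-14L minus UQCR-14 was then the widest at -0.228. COX7AL had -0.136 and -0.135 on the Cy5 arrays and 0.150 and 0.157 on the Cy3 arrays, with a mean of 0.009 ± 0.003, which was 0.189 below that of COX7A. Its replicates were nearly identical within a dye, and its sign followed the dye. UQCR-14L had 0.229 and 0.113 on the Cy5 arrays and -0.316 and -0.016 on the Cy3 arrays, with a mean of 0.0025 ± 0.065, against 0.154 for UQCR-14. COX4L had -0.087 and -0.017 on the Cy5 arrays and -0.002 and 0.042 on the Cy3 arrays, with a mean of -0.016 ± 0.040, against 0.112 for COX4. COX4L was the only copy below its namesake on all 4 arrays. COX5BL, with -0.354 and 0.026 on the Cy5 arrays and 0.219 and 0.052 on the Cy3 arrays, had a mean of -0.014 ± 0.075, against 0.109 for COX5B.

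In complex V the copy lay below its namesake in ATPsynbetaL and ATPsynCF6L and above it in ATPsynGL and ATPsynepsilonL. ATPsynbetaL had -0.187 and 0.122 on the Cy5 arrays and -0.058 and -0.001 on the Cy3 arrays, with a mean of -0.031 ± 0.129, against 0.069 for ATPsynbeta. ATPsynCF6L, with -0.079 and -0.005 on the Cy5 arrays and 0.130 and -0.042 on the Cy3 arrays, had a mean of 0.001 ± 0.035, against 0.013 for ATPsynCF6. ATPsynGL was the exception among the copies, with 0.304 and -0.025 on the Cy5 arrays and 0.198 and 0.063 on the Cy3 arrays. Its mean of 0.135 ± 0.164, against 0.058 for ATPsynG, rested on replicate 1, at 0.251, while replicate 2 was at 0.019. ATPsynepsilonL lay at 0.010 ± 0.0095, against -0.014 for sun, the epsilon subunit gene, and COX6AL2 at -0.054 ± 0.039, against -0.075 for levy, the COX6A gene. On the arrays, ATPsynepsilonL had -0.056 and 0.053 on the Cy5 arrays and 0.063 and -0.019 on the Cy3 arrays, against 0.163, -0.144, -0.067 and -0.008 in that order for sun. COX6AL2 had -0.148 and -0.164 on the Cy5 arrays and 0.096 and 0.001 on the Cy3 arrays, against -0.007, -0.158, -0.022 and -0.114 for levy, which lay below 0 throughout. The values of ATPsynG were 0.200, -0.057, 0.014 and 0.076 in the same order, and those of ATPsynCF6 0.050, -0.042, 0.041 and 0.003. In all 9 pairs measured on all arrays, the array values of copy and namesake overlapped. The copies with values on 3 arrays, all missing from the Cy5 array of replicate 1, were mixed. UQCR-11L had -0.064 on the Cy5 array of replicate 2 and -0.106 and 0.097 on the Cy3 arrays. COX6AL had -0.318 on the Cy5 array of replicate 2 and 0.173 and -0.001 on the Cy3 arrays, and COX6CL had 0.196 there and 0.043 and 0.151 on the Cy3 arrays.

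**Figure D3:**
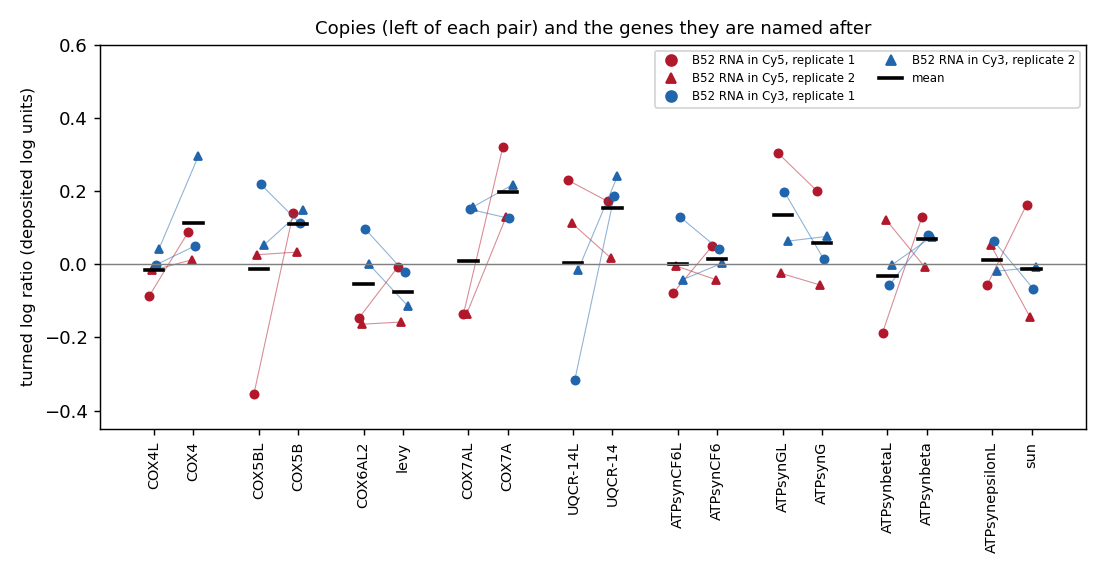
Turned log ratios, in deposited log units, of 9 copies (left of each pair) and the genes they are named after (right) on the 4 arrays, joined by array, with means as black bars. COX7AL has its points at about -0.136 on the Cy5 arrays and at 0.150 and 0.157 on the Cy3 arrays, while all 4 points of COX7A are above 0.

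Other genes of energy metabolism were set beside the members. The 37 members had a median of 0.058, and the 33 complex I genes measured, copies included in both, had 0.044. Without turning these medians were 0.009 and 0.003, and the difference was not tested. Of the complex I genes 22 lay above 0 (66.7%), against 46% of all genes. Above 0 on all 4 arrays were 8 of the 33 complex I genes, beside 6 of the 37 members. Such genes were thus not particular to complexes II to V. In limma over genes, 6 complex I genes and 5 members had an unadjusted p under 0.05 on the B52-probe side. On the opposite side 3 complex I genes and 0 members did. The means of complex I genes ran between -0.258 (ND-B12) and 0.304 (ND-MNLL). The tricarboxylic acid cycle feeds electrons to the chain. Its list of 18 measured genes also held genes of pyruvate dehydrogenase and its regulation, such as muc, Pdk and Pdp. This list had a median of 0.037, with 14 above 0. It was led by the isocitrate dehydrogenase gene Idh3g at 0.162 ± 0.071 and the oxoglutarate dehydrogenase gene Ogdh at 0.129 ± 0.023. The 16 assembly factor genes had a median of -0.006, with 7 above 0, and the 11 genes of carriers, porins and the ATP synthase inhibitor -0.001, with 5 above 0. Among the last, CG13551, the inhibitor gene, lay at 0.132 ± 0.096 and above 0 on all 4 arrays, and sesB, the ADP/ATP carrier, at 0.075 ± 0.112. The 5 subunit genes that carry other names ran between -0.075 for levy and 0.122 for Neb-cGP, with blw, the alpha subunit gene, at 0.015 ± 0.032. With these 5 added, the member median was 0.050. In limma over genes, 0 genes of these lists were called at an adjusted p under 0.05.

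**Figure D4:**
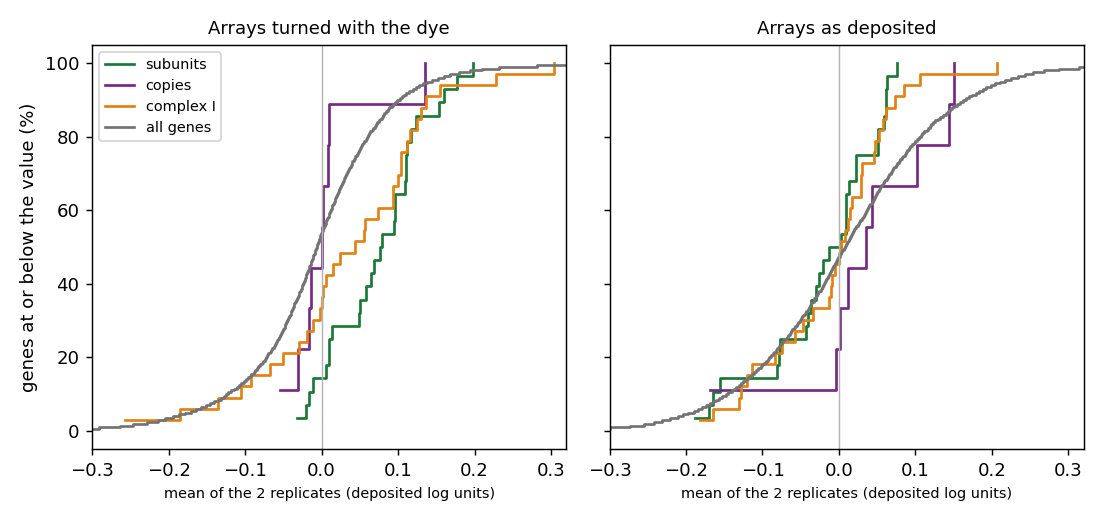
Percent of genes at or below each mean over 2 replicates, in deposited log units, for subunit genes of complexes II to V, their copies, complex I genes and all genes, with the arrays turned (left) and as deposited (right). The subunit median is 0.078, beside -0.007 for all genes, with turning and -0.0054, beside 0.007 for all genes, as deposited.

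Marker genes of tissues that the extracts could hold were also read as ratios. Of 9 measured muscle genes 7 lay above 0, with a median of 0.114 and a range between -0.200 (Act87E) and 0.237 (Tm2), and of 6 hemocyte genes 5 did, with a median of 0.152 and a range between -0.105 and 0.308. Of 7 salivary gland genes 4 lay above 0, with a median of 0.097, and of 4 fat body genes 2 did, with a median of -0.018. Of 9 genes of photoreceptors and the eye disc 3 lay above 0, with a median of -0.073. On the Cy5 array of replicate 1, where the member median was 0.167, the medians were 0.265 for muscle, 0.113 for salivary gland, -0.048 for hemocyte, -0.005 for fat body and -0.120 for eye genes. On the Cy3 array of replicate 1, where the member median was 0.050, the muscle median was -0.042. Without turning, the muscle median was -0.057, that of the hemocyte genes 0.030, of the salivary gland genes -0.113, of the fat body genes 0.026 and of the eye genes 0.103. The part of these tissues in the member values was not tested. The ratios compare the B52 and GFP-NLS precipitates. Cell numbers, RNA per cell and the share of an RNA that was precipitated therefore cannot be told apart. Across the 37 members the 2 replicates correlated at a Pearson r of 0.435, beside 0.311 over all probes. The means of the 2 dye orientations correlated at -0.226 across the members. Over probes of the whole series, the turned arrays of opposite orientation correlated at -0.608 in replicate 1 and at 0.167 in replicate 2. As deposited these values were 0.603 and -0.140. These are descriptions over genes that share arrays and extracts, not over independent samples.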

How the data were processed

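Log ratios between channels were deposited for 15744 probes, a unit other than counts. The sources used here state no log base, ratio direction, background correction or normalization. Column medians lay between 0.002 and 0.006. There were 16 cells with the placeholder -10000, treated as missing, and values for between 14788 and 15394 probes per array. The number of replicates, which was 2, limits the precision. Names came from the supplied platform annotation, of which 13147 probes had 1 gene symbol, 99 several and 2498 none, and 12519 took the current symbol through the gene identifier in Release 6.

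Arrays were centred, turned with the dye and averaged per replicate. Probes with values on all 4 arrays were tested against 0 in limma 3.58.1 (R 4.3.3, lmFit and eBayes, 3.47 prior degrees of freedom). The fit was also run on simulated, independent replicate means without dye effects, which cannot show how it behaves with such effects. Probes of a gene were averaged for counts and medians. Members and lists were chosen with earlier results of these data known. All members were named; array values were given for the largest means of each complex and all copies with their namesakes, and for further members chosen after their values were seen. Of the fixed lists, cytochrome c had no measured gene and the copies of Sdh and Cyt-c1 had a median of -0.015 over 3 genes, with 0 above 0. Promoter motifs named in the design were not searched, as no sequences were used here. Alternatives were no centring, scaled arrays, fewer required arrays, leaving out replicates or arrays, arrays as samples, robust moderation, genes in place of probes, a dye term, a replicate block, and no turning. The arrays of replicate 1 are a dye swap per the series' design text, and those of replicate 2 were paired by the number in their labels.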

Additional observations from a re-analysis of the deposited data

Results flagged for a closer look

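In 3 members, all of them copies, both arrays of 1 dye orientation lay on 1 side after turning and both arrays of the other orientation on the opposite side; the difference between orientations was not tested. Without turning these genes keep 1 sign on all 4 arrays, with a mean of -0.169 for UQCR-14L, 0.102 for COX6AL2 and 0.145 for COX7AL. The turned means of the Cy5 and the Cy3 arrays were 0.171 and -0.166 for UQCR-14L, -0.156 and 0.049 for COX6AL2, and -0.136 and 0.154 for COX7AL. These 3 are 8.11% of the members, while 12.3% of all genes are above 0 and 9.73% below 0 on all 4 arrays as deposited, so such genes were not more frequent among the members.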

How the results depend on the processing

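Without turning, 92 probes were called over the whole table, 34 above 0 and 58 below, with 0 member probes among them; the member median was 0.009, those of complexes II, III and V were -0.079, -0.040 and 0.0015, that of the subunits without copies was -0.0054 and that of the copies 0.036. The sign reversed in 20 of 37 genes, with means of -0.021 for ATPsynC, -0.044 for ATPsynE, -0.013 for ATPsynG, -0.0045 for ATPsynGL, -0.037 for ATPsynO, 0.0015 for ATPsynbetaL, -0.077 for ATPsyngamma, 0.036 for COX4L, 0.150 for COX5BL, 0.102 for COX6AL2, -0.156 for COX6B, -0.027 for COX7A, 0.063 for COX7C, -0.030 for COX8, -0.165 for RFeSP, -0.079 for SdhB, -0.081 for SdhD, -0.169 for UQCR-14L, -0.040 for UQCR-6.4 and 0.0088 for UQCR-Q; the sources used here do not settle which reading holds.

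With arrays scaled to a common spread, the medians of complexes II and III were 0.038 and 0.013, and ATPsynCF6L, COX5BL, COX8 and UQCR-6.4 reversed, to -0.0033, 0.0071, -0.016 and -0.0065. With 1 array per replicate allowed, the complex III median was 0.0061. With a random replicate block for the paired arrays, limma called 447 probes, 118 above 0 and 329 below, and 1 member probe, COX7A. The fitted block correlation was -0.664, and a negative value makes the errors of means small, so these calls are not relied on. Robust moderation and genes in place of probes called 1 each, and 0 members. Leaving out names ending in L gave a member median of 0.076, leaving out all copies 0.078, and the copies alone 0.001, with 5 above 0.

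Leaving out a replicate or an array in turn gave a member median between 0.033 and 0.105, with between 26 and 29 members above 0. Ranges of the median were -0.0097 to 0.089 for complex II, -0.052 to 0.139 for complex III, 0.013 to 0.098 for complex IV, 0.029 to 0.122 for complex V, 0.031 to 0.122 for the subunits without copies and -0.051 to 0.040 for the copies. A change of sign occurred in 18 genes and 19 kept 1 sign. The ranges of the 18 were -0.020 to 0.046 for ATPsynCF6, -0.051 to 0.053 for ATPsynCF6L, -0.164 to 0.130 for ATPsynF, -0.123 to 0.061 for ATPsynbetaL, -0.020 to 0.040 for ATPsynepsilonL, -0.045 to 0.013 for COX4L, -0.158 to 0.129 for COX5BL, -0.115 to 0.0073 for COX6AL2, -0.064 to 0.082 for COX7AL, -0.088 to 0.047 for COX7C, -0.080 to 0.092 for COX8, -0.0097 to 0.168 for SdhB, -0.0025 to 0.102 for SdhC, -0.058 to 0.077 for SdhD, -0.134 to 0.139 for UQCR-14L, -0.052 to 0.072 for UQCR-6.4, -0.090 to 0.025 for UQCR-Q and -0.216 to 0.194 for ox. Leaving out a whole replicate gives values with no test, and leaving out an array leaves its replicate with 1 dye orientation. The causes of these changes were not tested, and with 2 replicates and ratios alone neither dim spots nor dye effects could be separated from the values.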
